A study of Mus musculus with 6 samples.

Results

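Haemoglobin, pericyte and endothelial genes were followed as 10 of the 52143 gene identifiers measured in sorted mouse rods. They were taken by symbol, main chromosomes only. The blood genes were Hba-a1, Hba-a2, Hbb-bs and Hbb-bt, the pericyte genes Rgs5 and Pdgfrb, and the endothelial genes Cldn5, Pecam1, Kdr and Flt1. The rods came from retinas given plasmids by electroporation at birth (P0), and were collected by flow sorting at P10. Both groups carried Nrlp-EGFP, in which the promoter of the rod factor Nrl drives green fluorescent protein, and EGFP was the sorting mark. The libraries labelled Jun knockdown (n = 3) also carried an shRNA plasmid against Jun, and the control libraries (n = 3) the pLKO.1-Scrambled plasmid. Strain, sex and the animals behind each library are not given in the sources used here, so each p-value reflects only how far these libraries spread, which can be partly technical.

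None of the 10 genes is known as a rod marker. Circulating red cells carry residual haemoglobin mRNA, of which the adult alpha chains come from Hba-a1 and Hba-a2 and the adult beta chains from Hbb-bs and Hbb-bt. Retinal capillaries are tubes of endothelial cells joined by tight junctions and wrapped by pericytes, and they spread through the mouse retina during the days after birth. Vascular endothelial growth factor made by neurons and glia acts on endothelial receptors encoded by Kdr and Flt1, and platelet-derived growth factor B from endothelium holds pericytes through the receptor encoded by Pdgfrb.

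The libraries labelled Jun knockdown held 13211300 to 13998400 counts and the controls 32150100 to 105801000, so depth cannot be told apart from group. Jun stood at 1.80, 17.6 and 19.3 CPM in libraries labelled Jun knockdown 1, 2 and 3, and at 6.46, 5.86 and 7.16 CPM in controls 1, 2 and 3, where CPM is the count scaled to a common library size after TMM adjustment. Jun was thus lower than in the controls in labelled library 1 and higher in labelled libraries 2 and 3 (log2 fold change 0.99, SE 1.44, adjusted p = 0.764, edgeR), and groups are named by their labels throughout. All 13 rod markers were above 1 CPM in all 6 libraries. Of them Nr2e3, Gnat1, Sag, Pdc, Pde6b, Pde6g, Prph2, Rom1 and Rcvrn passed as lower in the libraries labelled Jun knockdown, with log2 fold changes of -4.34 for Rom1 to -1.65 for Pde6g. Over all genes tested, 173 passed as lower and 41 as higher (edgeR's quasi-likelihood test, adjusted p under 0.05). That split was 89 and 55 with upper quartile scaling, and 79 and 68 with library totals.

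Haemoglobin RNA was present in every control library and nearly absent from every library labelled Jun knockdown. Hba-a1 (chr11:32283511-32284465, + strand; deposited coordinates of all 10 genes equal those of GENCODE vM21 on GRCm38) had 0 counts in all 3 labelled libraries, against 1808, 4347 and 3426 counts in controls 1, 2 and 3. These control counts are 49.6, 48.3 and 123 CPM, so control 3 was the highest. Hbb-bs (chr7:103826534-103828096, - strand) stood at 0.138, 0 and 0.0790 CPM in libraries labelled Jun knockdown 1, 2 and 3, and at 86.4, 74.8 and 74.9 CPM in the controls. The controls lay close together for this gene, and the groups did not overlap. Hba-a2 (chr11:32296489-32297298, + strand) measured 0, 0 and 0.0606 CPM in the labelled libraries and 18.7, 17.7 and 41.0 CPM in the controls. Hbb-bt (chr7:103812524-103813996, - strand) measured 0, 0 and 0.0794 CPM in the labelled libraries and 5.003, 11.6 and 5.81 CPM in the controls. For all 4 genes every labelled library lay below every control, and Hba-a2 and Hbb-bt reached at most 1 rounded count in any labelled library.

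**Figure D1:**
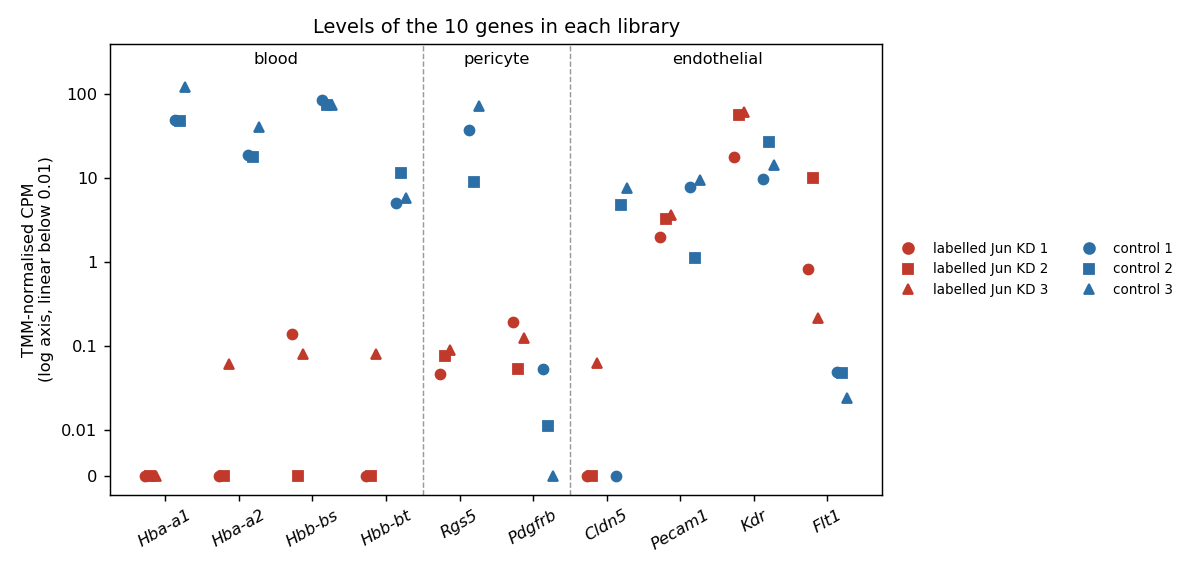
TMM-normalised CPM of the 10 genes (log axis, linear below 0.01), with libraries labelled Jun knockdown in red left of controls in blue, 1 point per library. The 4 blood genes and Rgs5 lie at or below 0.138 CPM in red and at or above 5.003 CPM in blue, while Kdr is highest in red points 2 and 3.

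The summed blood genes made up 0.153, 0 and 0.239 CPM of the plain library total in libraries labelled Jun knockdown 1, 2 and 3, against 126, 130 and 212 CPM in controls 1, 2 and 3. The 95% Wilson intervals reached at most 0.630 CPM in a labelled library and went no lower than 123 CPM in a control. Such intervals, like the floors below, cover counting error only, because no molecular identifiers separate amplified reads from original molecules. In bulk libraries fewer red cells and less RNA per red cell cannot be told apart. At the mean control level the labelled libraries would have held 1083 to 1307 counts of Hba-a1 and 1156 to 1395 of Hbb-bs. After thinning each library to 13211600 counts, the controls held 506, 584 and 1420 counts of Hba-a1.

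Hbb-bs passed the test (adjusted p = 0.0230, edgeR), with 3 counts over the labelled libraries and 11966 over the controls, a 1233-fold lower level in the labelled libraries (95% Clopper-Pearson interval 422 to 5981). Hba-a1 passed (adjusted p = 0.0297, edgeR) and was at least 987-fold lower in the labelled libraries with the 3-count floor set on the group as a whole. Hba-a2 and Hbb-bt did not pass (adjusted p = 0.0569 and 0.0791, edgeR), with 1 count each over the labelled libraries against 3414 and 1391 over the controls. Their ratios were 1056 (interval 189 to 41704) and 430 (interval 77.1 to 16999). Both counts were in labelled library 3, without which the fitted log2 fold changes were -12.91 for Hba-a2 and -11.13 for Hbb-bt, against -10.01 and -8.22 with it, values that depend on the prior count. With DESeq2 both passed (adjusted p = 5.02e-07 and 6.76e-05), as they did with limma-voom (0.0138 and 0.0227). The call of Hba-a1 ended when any of the 6 libraries was left out (adjusted p 0.0531 to 0.142), and that of Hbb-bs without any 1 control or without labelled library 3 (0.0711 to 0.118). The fitted log2 fold change of Hbb-bs was -10.15, and it was -11.18 without labelled library 1 and -9.55 without labelled library 2.

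The test called 3 of the 10 genes lower, Hbb-bs, Hba-a1 and Rgs5, and 0 higher (edgeR, with 5 lower and 0 higher at an unadjusted p under 0.05, while DESeq2 also called Flt1 higher). Of the 10 genes 7 passed the low-count filter. Among all 12815 tested genes 1.35% were called lower and 0.32% higher, and 10.7% were lower at an unadjusted p under 0.05. A gene close to 0 in 1 group passes that filter only by being high in the other, so this share is not read as support. All 3 labelled libraries lay below all 3 controls for 5 of the 10 genes, against 15.7% of tested genes. These 5 were Rgs5 and the 4 blood genes, which form pairs of near-identical copies and so are not separate cases. The labelled libraries lay above all 3 controls for Flt1 and Pdgfrb, against 12.6% of tested genes, a share that covers only genes past the filter, which neither passed. For Pdgfrb the order holds only after scaling, as labelled library 2 held 0.939 counts and control 1 held 1.91.

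**Figure D2:**
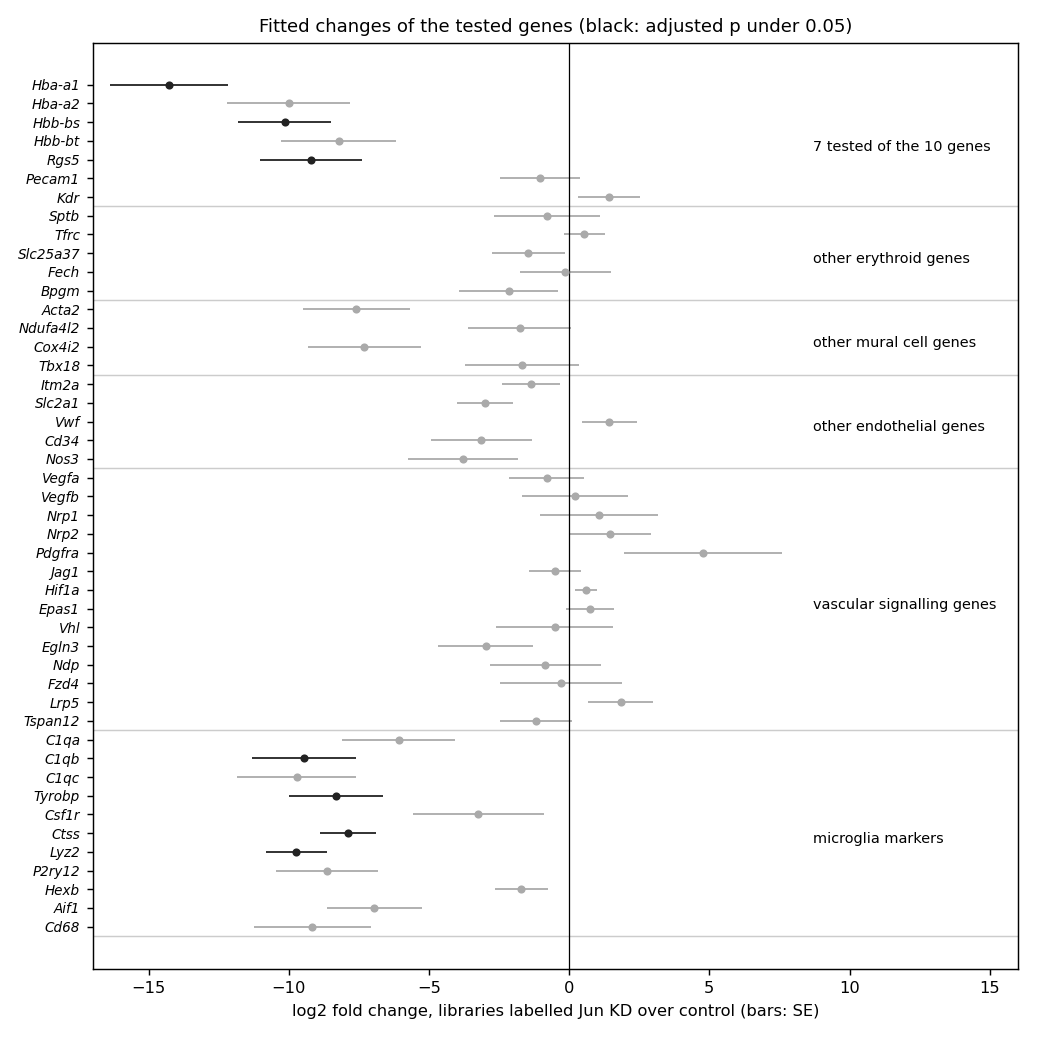
Fitted log2 fold changes with standard errors (bars) for the 7 tested of the 10 genes and for the tested genes of 5 other lists, with genes past an adjusted p of 0.05 in black. Fitted values of genes near 0 counts depend on the prior count and are not bounds, and Kdr lies at 1.42 and Pecam1 at -1.06.

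The near-identity of the haemoglobin copies bears on how their reads were shared out. The coding sequences of Hba-a1 and Hba-a2 (429 bases, GENCODE vM21) differ at 1 base, C381T, given as the Hba-a1 base, its position counted from 1 at the A of the start codon, and the Hba-a2 base. Those of Hbb-bs and Hbb-bt (444 bases) also differ at 1 base, C417T. Below are the 60 coding bases around each difference, positions 351 to 410 for the alpha pair and 385 to 444 for the beta pair, with the differing base in capitals.
Hba-a1: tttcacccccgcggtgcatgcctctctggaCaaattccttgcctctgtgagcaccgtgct
Hba-a2: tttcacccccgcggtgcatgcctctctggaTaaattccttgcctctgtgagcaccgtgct
Hbb-bs: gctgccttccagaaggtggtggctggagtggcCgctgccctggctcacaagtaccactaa
Hbb-bt: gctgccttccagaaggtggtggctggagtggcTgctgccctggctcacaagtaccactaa
Of the 31-base windows of the Hba-a1 coding sequence, 92.2% occur unchanged in Hba-a2, and of those of Hbb-bs 93.2% occur in Hbb-bt. Over whole transcripts the shared fraction was 71.3% for Hba-a1, 91.0% for Hba-a2, 66.9% for Hbb-bs and 59.4% for Hbb-bt. In the deposited counts Hba-a1 made up 72.6%, 73.2% and 75.1% of alpha counts and Hbb-bs 94.5%, 86.5% and 92.8% of beta counts in controls 1, 2 and 3. Values for single copies are uncertain, and sums over a pair are less so. Alpha counts were 0.747, 0.764 and 2.03 times beta counts in controls 1, 2 and 3. Control 3 therefore stood apart in its chain ratio, and it did so on transcript counts too (0.743, 0.757 and 2.01).

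The 250 bases before the RefSeq start of each haemoglobin gene (GRCm38.p6) are shown because these 4 genes were high in every control and near 0 in every labelled library. Capitals mark every match, on either strand, to 4 short motifs. These were GATAA for GATA factors, CACCC for the erythroid Krüppel-like factor, CCAAT for the nuclear factor Y family and TATAA for the TATA-binding protein, and in the Hbb-bt window 2 matches to CCAAT adjoin in 1 run of capitals. The windows are chr11:32283422-32283671 (+), chr11:32296242-32296491 (+), chr7:103827929-103828178 (-) and chr7:103813924-103814173 (-), in the order Hba-a1, Hba-a2, Hbb-bs, Hbb-bt. All 4 windows run into the deposited gene coordinates, which for Hba-a1 begin at 32283511. Distances below are from the RefSeq start.
Hba-a1: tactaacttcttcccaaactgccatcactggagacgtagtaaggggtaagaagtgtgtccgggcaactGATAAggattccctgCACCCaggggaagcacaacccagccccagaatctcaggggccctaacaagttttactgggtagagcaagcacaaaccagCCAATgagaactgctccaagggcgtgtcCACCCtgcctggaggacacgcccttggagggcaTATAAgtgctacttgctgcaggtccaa
Hba-a2: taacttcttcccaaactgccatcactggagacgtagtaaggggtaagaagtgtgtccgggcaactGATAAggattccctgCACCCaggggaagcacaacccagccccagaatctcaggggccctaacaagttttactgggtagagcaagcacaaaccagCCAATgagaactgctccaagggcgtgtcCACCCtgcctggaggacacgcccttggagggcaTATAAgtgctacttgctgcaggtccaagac
Hbb-bs: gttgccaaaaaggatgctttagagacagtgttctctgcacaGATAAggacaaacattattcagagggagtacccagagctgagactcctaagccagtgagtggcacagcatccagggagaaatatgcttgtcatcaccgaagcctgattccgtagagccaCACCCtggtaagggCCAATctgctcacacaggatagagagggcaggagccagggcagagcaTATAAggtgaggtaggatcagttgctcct
Hbb-bt: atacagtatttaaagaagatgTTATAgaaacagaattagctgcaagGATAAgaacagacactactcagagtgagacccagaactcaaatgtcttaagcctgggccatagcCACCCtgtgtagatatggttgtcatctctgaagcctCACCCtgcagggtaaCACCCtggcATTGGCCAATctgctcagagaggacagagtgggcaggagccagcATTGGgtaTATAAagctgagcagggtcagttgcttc
All 4 windows held all 4 motifs, with TATAA starting 27 to 30 bases and CCAAT 75 to 91 bases before the start when read as written. All 4 motifs together occurred in 0.965% of 32536 promoter windows of this length, and singly GATAA occurred in 22.5%, CACCC in 52.1%, CCAAT in 33.8% and TATAA in 22.7%. The alpha windows share an identical run of 247 bases at an offset of 3, so they are not separate cases. Of the 10 genes 8 matched the promoter table. Rgs5 held GATAA and CCAAT, Cldn5 held CACCC and CCAAT with 2 matches each, Kdr held CACCC, and Flt1 held CACCC and overlapping matches to TATAA. The motifs were chosen after the sequences were seen, and a match is a description of letters, not of binding.

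None of the other erythroid genes passed the test. Of 21 listed, 20 were in the table and 5 passed the filter, of which 0 were called in either direction (0 at an unadjusted p under 0.05, edgeR, and list median -0.78, against -0.12 over all tested genes). The embryonic globins Hbb-y, Hbb-bh1 and Hba-x held 0, 0 and 2 counts over the labelled libraries and 1, 0 and 1 over the controls. Gata1 and Rhd, an erythroid transcription factor and a blood group protein, held 0 counts in both groups. Alas2, the erythroid enzyme that starts haem synthesis, had 81 counts in control 2 and 0 in controls 1 and 3, and at most 1 in a labelled library. Slc4a1, the red cell anion exchanger, held 4 counts over the labelled libraries and 8 over the controls. Epb42, named after its values were seen, went the other way, with 77 counts over the labelled libraries and 10 over the controls. Of the 20, 0 reached 1 CPM in exactly 1 control, 1 in 2 controls and 4 in all 3. In the labelled libraries 1 did so in 1 library, 3 in 2 libraries and 3 in all 3. The 2 tested genes with the smallest p were Bpgm, which sets 2,3-bisphosphoglycerate in red cells, and Slc25a37, a mitochondrial iron importer. Bpgm stood at 110, 0.118 and 1.00 CPM in libraries labelled Jun knockdown 1, 2 and 3 and at 175, 96.4 and 226 CPM in the controls (adjusted p = 0.572, edgeR). Labelled library 1 lay within the range of the controls, and libraries 2 and 3 far below it. Slc25a37 measured 18.0, 31.0045 and 11.6 CPM in the labelled libraries and 2.94, 76.5 and 86.8 CPM in the controls (adjusted p = 0.602, edgeR).

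Of the pericyte genes, Rgs5 reached 1 CPM in all 3 controls and in none of the labelled libraries, and Pdgfrb did so in none of the 6. Rgs5 (chr1:169655501-169695813, + strand) encodes a GTPase activator for G protein alpha subunits and is a marker of pericytes. It stood at 0.0464, 0.0759 and 0.0887 CPM in libraries labelled Jun knockdown 1, 2 and 3, and at 37.9, 9.02 and 72.5 CPM in controls 1, 2 and 3. The groups did not overlap, and the controls themselves spread widely. It passed the test (adjusted p = 0.0458, edgeR), with 3 counts over the labelled libraries and 4211 over the controls, a 434-fold lower level (interval 148 to 2105). The call ended when any library was left out (adjusted p 0.0959 to 0.155), under each other scaling (0.0524 to 0.0614), after thinning (0.0554), with limma-trend after adding 2 to the signal (0.0509) and on sums of transcript counts (0.0643). The fitted log2 fold change was -9.22, and it was -8.42 without control 3 and -7.94 on sums of transcript counts. In the limma-trend fit with 2 added to the signal it was -4.76. The 434-fold ratio rests on deposited gene values, which the next paragraph sets beside transcript counts.

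The order of the controls for Rgs5 depended on the table read. In controls 1 and 2 the 4096-base coding transcript held 2012 and 1139 estimated counts and the 723-base coding transcript held 0. In control 3 the 723-base form held 349.98 counts and the 4096-base form 2.02, so 99.4% of counts were on the short form. The deposited gene value there was 2015, or 5.73 times the transcript sum of 352, whereas in controls 1 and 2 it was 0.688 and 0.713 times the sum. Before scaling to library size, control 3 thus had the highest deposited gene value of the 3 controls and the fewest estimated transcript counts. Per kilobase it was again the highest (15.1, against 10.6 and 2.63 CPM per kilobase). Labelled libraries 1, 2 and 3 held 1, 2 and 2 transcript counts, all on the 4096-base form.

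**Figure D3:**
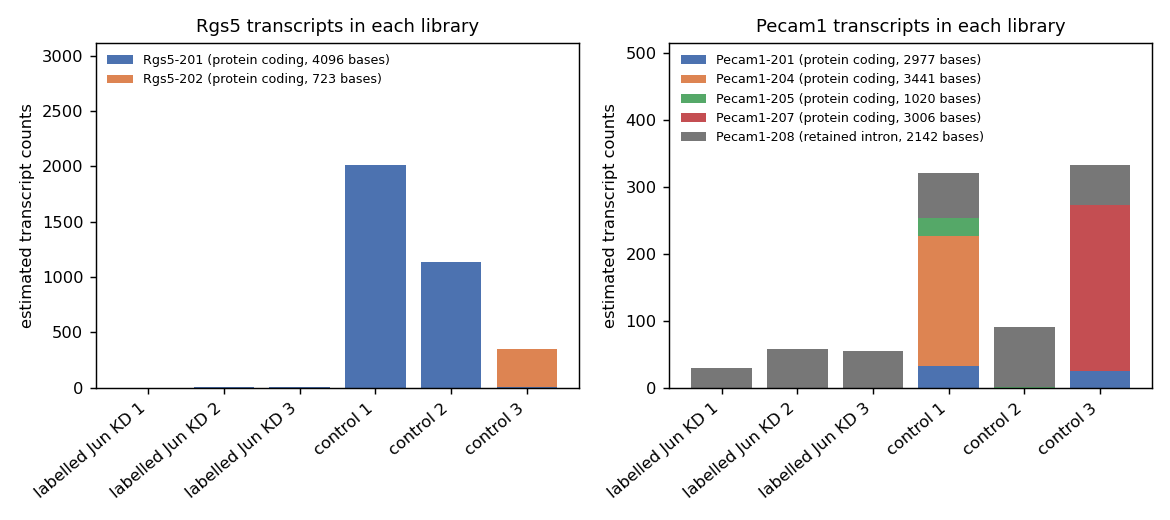
Estimated counts of each Rgs5 transcript (left) and Pecam1 transcript (right) in each library, stacked by transcript on linear axes, libraries labelled Jun knockdown left of controls. Rgs5 counts sit on the 4096-base form in controls 1 and 2 and on the 723-base form in control 3, and the 3 labelled libraries hold the 2142-base retained-intron form alone among Pecam1 transcripts.

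Pdgfrb (chr18:61045150-61085061, + strand), which defines pericytes by their growth factor receptor, was close to 0 everywhere. It held 2.85, 0.939 and 1.89 estimated counts in the labelled libraries and 1.91, 0.992 and 0 in the controls. It did not pass the filter, and no difference was detectable at this depth. Other mural cell genes, of which 4 of 16 were tested and 0 called in either direction (2 at an unadjusted p under 0.05, edgeR), had a median of -4.54. Acta2, smooth muscle actin, reached 0.257, 0 and 0.306 CPM in the labelled libraries and 21.7, 53.9 and 41.3 CPM in the controls (adjusted p = 0.0810, edgeR). Cox4i2, a respiratory subunit enriched in pericytes, had 0.127, 0 and 0.0603 CPM in the labelled libraries and 6.09, 9.28 and 17.8 CPM in the controls (adjusted p = 0.103, edgeR). Neither gene overlapped between groups. Cspg4 and Kcnj8, further defining pericyte genes, held 7 and 2 counts over the labelled libraries and 4 and 0 over the controls.

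Several mural genes reached 1 CPM in 1 control alone. Of the 16, 7 reached 1 CPM in exactly 1 control, 1 in 2 controls and 2 in all 3, while in the labelled libraries 3 did so in 1 library, 1 in 2 libraries and 0 in all 3. Tagln, a smooth muscle actin-binding protein, stood at 48.3 CPM in control 3 and was at 0 in controls 1 and 2 and in each labelled library. Myl9, a myosin light chain, stood at 16.7 CPM in control 2 and at or below 0.0497 CPM in the other 5 libraries. Higd1b, a pericyte-enriched gene, stood at 8.12 CPM in control 2 and at or below 0.399 CPM elsewhere. These 3 were chosen after their values were seen.

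The endothelial genes did not move as a block. Cldn5 (chr16:18776847-18778262, + strand), which encodes the main claudin of barrier endothelium, stood at 0, 0 and 0.0622 CPM in libraries labelled Jun knockdown 1, 2 and 3. In controls 1, 2 and 3 it stood at 0, 4.77 and 7.57 CPM. It was thus at 0 in control 1 as well, so the groups overlapped, and the gene did not pass the filter. Without the filter its adjusted p was 0.190 with edgeR, and with DESeq2 it was 0.0340. Over the groups it had 1 count in the labelled libraries and 640 in the controls (ratio 198, interval 35.4 to 7828).

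Pecam1 (chr11:106654217-106750628, - strand), the adhesion molecule CD31 of endothelial junctions, platelets and some leukocytes, did not pass (log2 fold change -1.06, SE 1.42, adjusted p = 0.745, edgeR). It measured 2.00, 3.22 and 3.67 CPM in the labelled libraries and 7.87, 1.10 and 9.47 CPM in the controls, and control 2 was the lowest of all 6 libraries. The transcripts behind these values differed between libraries. The 6 protein-coding transcripts together held 0, 0 and 0 counts in the labelled libraries and 253, 1 and 273 in controls 1, 2 and 3. The remaining counts were on a transcript annotated as a retained intron, which held 28.8, 57.1 and 55.4 counts in the labelled libraries and 67.9, 89.9 and 59.2 in the controls. It is a single exon of 2142 bases (chr11:106661185-106663326), of which 89.4% lies in no other Pecam1 exon and 68 bases are coding in another transcript. As CPM of the plain library total it stood at 2.18, 4.29 and 3.96 in the labelled libraries and at 1.47, 0.850 and 1.84 in the controls, with the groups apart. With TMM-scaled library sizes it had 1.96, 3.22 and 3.63 CPM in the labelled libraries and 1.86, 0.999 and 2.13 CPM in the controls, where labelled library 1 fell below control 3 and the groups overlapped. Most coding counts were on a 3441-base transcript in control 1 (194) and on a 3006-base transcript in control 3 (248).

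Kdr (chr5:75932827-75978458, - strand) encodes the receptor through which the growth factor drives endothelial division and sprouting, and it is also known from some retinal neurons. It was the most abundant of the 10 genes in the libraries labelled Jun knockdown, at 18.1, 56.5 and 62.0 CPM, and stood at 9.73, 26.8 and 14.5 CPM in controls 1, 2 and 3. Labelled libraries 2 and 3 exceeded every control, and labelled library 1 lay below control 2. The difference did not pass (log2 fold change 1.42, SE 1.12, adjusted p = 0.553, edgeR), and it stayed positive under all 18 alternatives (1.09 to 2.00). The 5924-base coding transcript, of 30 exons, held 99.8% or more of Kdr counts in every library.

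Flt1 (chr5:147561604-147726011, - strand) encodes a second receptor for the same growth factor, which binds it tightly and limits its action, in part as a truncated secreted form. It held 11.998, 178 and 3.30 estimated counts in libraries labelled Jun knockdown 1, 2 and 3 and 1.77, 4.30 and 0.653 in the controls. This was 0.817, 10.03 and 0.216 CPM in the labelled libraries and 0.0484, 0.0478 and 0.0235 CPM in the controls, so labelled library 2 alone exceeded 1 CPM. Of its transcript counts in that library 297 were on the coding transcript of 13 exons and 0 on that of 30 exons. Flt1 did not pass the filter. Without the filter its adjusted p was 0.263 with edgeR, while with DESeq2 it was 0.00281.

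Compared per length and ordered by the median, the control levels ran from Hbb-bs (112 to 124 CPM per kilobase) and Hba-a1 (61.2 to 189) through Hba-a2 (22.2 to 64.4) to Rgs5 (2.63 to 15.1) and Hbb-bt (5.47 to 14.8). Cldn5 (0 to 4.59), Pecam1 (0.406 to 3.69) and Kdr (1.43 to 4.08) followed, and Flt1 and Pdgfrb were at or below 0.01004. Neighbours in this order overlapped in range, except Hba-a2 with Rgs5, Hbb-bt with Cldn5, and Kdr with Flt1. In the labelled libraries Kdr came first (3.76 to 14.2), then Pecam1 (1.02 to 2.00) and Flt1 (0.0591 to 3.55), and the other 7 genes were at or below 0.220 CPM per kilobase.

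Other endothelial genes were sparse. Of 29 listed, 5 were tested and 0 called in either direction (1 at an unadjusted p under 0.05, edgeR), with a median of -3.01. Sox17 and Eng, an endothelial transcription factor and a growth factor co-receptor, held 0 counts in all 6 libraries. Cdh5, which encodes the endothelial cadherin and defines the lineage, held 5 counts over the labelled libraries and 0 over the controls, and Tek, the angiopoietin receptor, 2 and 0. Slc2a1, the glucose transporter of barrier endothelium that other cells also make, measured 32.3, 7.29 and 7.93 CPM in the labelled libraries and 79.7, 232 and 72.036 CPM in the controls (log2 fold change -3.01, SE 1.01, adjusted p = 0.177, edgeR). Nos3, endothelial nitric oxide synthase, measured 0.0631, 9.50 and 0.0679 CPM in the labelled libraries and 30.4, 64.0 and 39.2 CPM in the controls (adjusted p = 0.364, edgeR). Neither overlapped between groups. Vwf, also tested and named after its values were seen, did not overlap either but was higher in the labelled libraries. It measured 1.84, 0.826 and 0.703 CPM there and 0.473, 0.469 and 0.327 CPM in the controls (log2 fold change 1.43, adjusted p = 0.494, edgeR).

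As with mural genes, 6 of the 29 reached 1 CPM in exactly 1 control, 3 in 2 controls and 3 in all 3. In the labelled libraries 3 did so in 1 library, 1 in 2 libraries and 2 in all 3. Emcn, a sialoprotein of veins and capillaries, stood at 61.1 CPM in control 3 and at or below 0.143 CPM in the other 5 libraries. Esam, an adhesion molecule of tight junctions, stood at 14.9 CPM in control 2 and at or below 0.0416 CPM elsewhere. Robo4, a guidance receptor of endothelium, stood at 4.65 CPM in control 1 and at or below 0.0656 CPM elsewhere. These 3 were also chosen after their values were seen, and each of them came from a different control library.

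**Figure D4:**
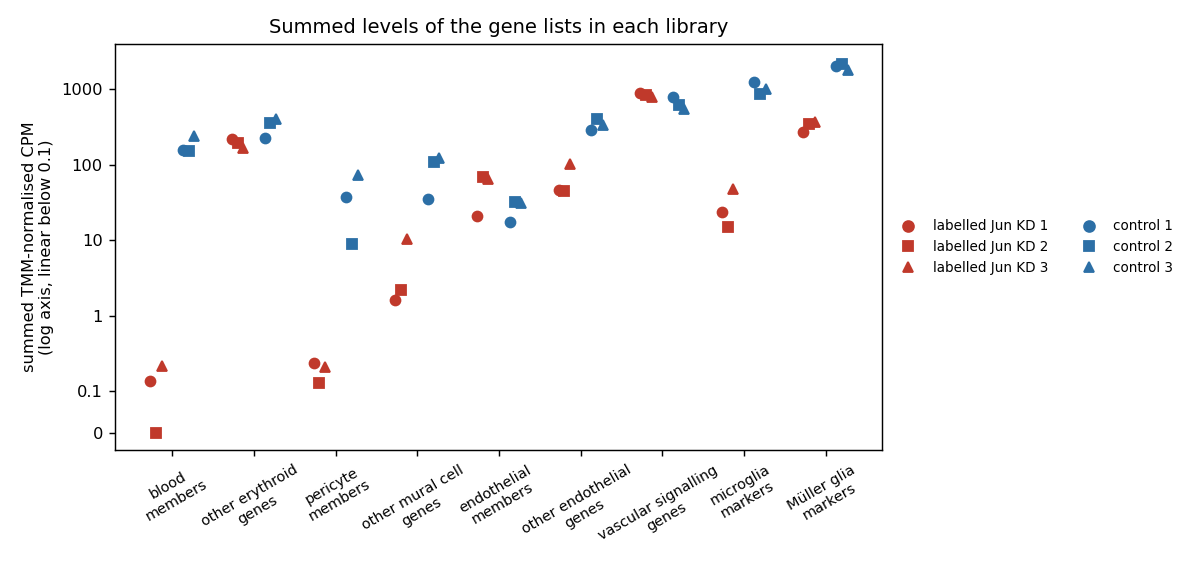
Summed TMM-normalised CPM of 9 gene lists (log axis, linear below 0.1), libraries labelled Jun knockdown in red left of controls in blue, 1 point per library. Blood genes sum to at most 0.219 CPM in red and at least 152 CPM in blue, other erythroid genes to 166 to 222 in red and 225 to 402 in blue, and vascular signalling genes to 784 to 886 in red and 544 to 799 in blue. A few genes, named after their values were seen, carry the last 2 sums. Hif1a alone holds 586 to 641 CPM of the signalling sum in red and 261 to 537 in blue. Most of the erythroid sum lies on Tfrc, Bpgm, Slc25a37 and Fech.

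Signalling genes that link neurons, endothelium and pericytes gave no calls. Of 23 listed, 14 were tested and 0 were called in either direction (0 at an unadjusted p under 0.05, edgeR), with 7 negative, 7 positive and a median of -0.06. Vegfa, the main ligand of the Kdr and Flt1 receptors, measured 1.99, 15.9 and 16.2 CPM in the labelled libraries and 14.9, 24.0 and 20.8 CPM in the controls (adjusted p = 0.796, edgeR). Labelled library 1 was the lowest of the 6, and libraries 2 and 3 lay within the range of the controls. The tested genes with the smallest p were Egln3, an oxygen-sensing prolyl hydroxylase, and Pdgfra, the other platelet-derived growth factor receptor. Egln3 measured 0.580, 0.210 and 0.554 CPM in the labelled libraries and 10.1, 0.210 and 0.499 CPM in the controls (adjusted p = 0.405, edgeR). Pdgfra had 29.2, 0.426 and 0.0845 CPM in the labelled libraries and 0.0366, 0 and 1.09 CPM in the controls (adjusted p = 0.425, edgeR). Each was high in a single library. Pdgfb, the ligand of the Pdgfrb receptor, held 1 count over the labelled libraries and 4 over the controls.

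Some markers of microglia and 1 of platelets passed in the same contrast, and the part of other cell types in these results was not tested. Of 11 tested microglia markers, 4 were called lower (Lyz2, Ctss, Tyrobp and C1qb) and 0 higher, against 1.35% and 0.32% of all tested genes. The median was -8.33 and all 11 were negative. A marker near 0 in 1 group passes the filter only by being high in the other, so these signs are not read as support. The untested marker, Cx3cr1, had a mean of 0.307 CPM in the labelled libraries and 0.314 CPM in the controls. All 12 listed markers summed to 24.0, 14.9 and 47.7 CPM in the labelled libraries and to 1261, 880 and 1020 CPM in the controls. Müller glia markers summed to 270, 347 and 370 CPM in the labelled libraries and to 2064, 2161 and 1805 CPM in the controls. Clu alone held 125, 159 and 9.51 CPM in the labelled libraries and 1233, 1205 and 1160 CPM in the controls. The list median was -2.10, with 7 negative, 2 positive and 0 of 9 called in either direction (3 at an unadjusted p under 0.05, edgeR). Clu and Apoe had the smallest p (adjusted p = 0.0652 and 0.0767, edgeR). The 2 positive genes, named after their values were seen, were Aqp4 and Slc1a3 (log2 fold changes 5.14 and 0.16). Among platelet markers 1 of 10 was tested, Clec1b, a receptor of platelets and some myeloid cells. It passed as higher (adjusted p = 0.0435, edgeR), at 38.9, 22.2 and 8.72 CPM in the labelled libraries and 0.0127, 0.0120 and 0 CPM in the controls. Pf4, a platelet chemokine, was at 0 in the labelled libraries and at 5.81, 0 and 0.370 CPM in the controls, and Ppbp, another, was at 0 in all 6. Of the other platelet markers, Gp1bb reached 9.25 CPM in labelled library 2 and at most 0.0352 CPM in a control, while Itga2b reached 3.56 CPM in labelled library 2 and 4.32 CPM in control 2. None of the remaining platelet markers exceeded 0.571 CPM in any library, the value of Gp6 in labelled library 2. Col1a2 of fibroblasts, Gfap and S100b of astrocytes and Ttr of pigment epithelium were the tested genes with the smallest p of their lists, and none passed (adjusted p = 0.731, 0.340, 0.819 and 0.0718, edgeR).

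The genes whose profile over the 6 libraries lay closest to the blood genes were Pef1, a calcium-binding protein, Fxyd5, an ion pump regulator, and Hmox1, haem oxygenase. Likeness was the Euclidean distance between log2 CPM profiles, each centred on its mean, and the distances were 0.651, 0.834 and 0.886 against a median of 11.2 over tested genes. Hmox1 measured 0.0543, 0 and 0.104 CPM in the labelled libraries and 29.9, 40.3 and 34.5 CPM in the controls (adjusted p = 0.0553, edgeR). Closest to Rgs5, the 1 tested pericyte gene, were Clca1, a chloride channel regulator (0.441), Tagap, a GTPase activator of lymphocytes (1.28), and Tmem39b, a membrane protein (1.28). Clca1 measured 0.0499, 0.0408 and 0.0477 CPM in the labelled libraries and 37.0, 10.7 and 56.0 CPM in the controls. It was picked for its likeness to Rgs5 over these same libraries, so their shared order of controls is not a separate result. Kdr and Pecam1 differed in sign, so their mean profile was nearly flat, and the closest genes were Olfr571, Bola2 and Pcca (0.296, 0.574 and 0.607 against a median of 4.67).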

How the data were processed

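RNA was measured in 6 libraries of flow-sorted P10 rods, made with a low-input full-length cDNA kit and Nextera XT, per the labels' protocols. The authors deposited estimated counts, per gene and per transcript, besides a gene table of normalised values. Per the submitters' processing notes, which state no role or order, the tools included Trimmomatic (0.39), kallisto (0.44.0) and edgeR (3.28.1); no genome build is given in the sources used. Columns of the deposited normalised table sum to 1250540 to 2385210 and were handled as a signal, each library's counts divided by 1 factor. Gene counts are not sums of transcript counts (6.62% of values lay within 1% of the sum), so gene and transcript values are on different scales. Deposited coordinates are given, and GENCODE vM21 (GRCm38) gave transcript lengths, types and gene membership (51336 of 52143 identifiers).

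Rounded gene counts went through filterByExpr and TMM scaling into edgeR's quasi-likelihood test on group (edgeR 4.0.16, R 4.3.3), two-sided. Benjamini-Hochberg adjustment ran over 12815 genes, with calls at 0.05. The SE of a gene is the log2 fold change over the square root of F. CPM uses unrounded counts and TMM-scaled totals. The script was tested on simulated counts. No strand marking is stated, so reads of a gene and of any overlapping gene on the other strand cannot be told apart. Values in CPM per kilobase sum each transcript's counts over its length and scale them to the library's transcript total. The alternatives were 3 other scalings, 2 other filters, DESeq2 1.42.0, limma-voom and limma-trend (limma 3.58.1; the deposited signal plus 0.5 or 2 on the log2 scale), thinning, a replicate block, each library left out, and transcript sums, the last chosen after seeing the data.

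The 10 genes and the 14 lists were chosen with earlier results of these data known. Named genes were the 10, Jun, in each other list the 2 tested genes with the smallest p and those that passed, and for each class the 3 genes nearest in profile (prior count 2). Others are said to be chosen after their values were seen, as were the genes named for being at or near 0 and the signalling ligands Vegfa and Pdgfb. A listed gene that the rule would name is not reported here. The share of libraries at or above 1 CPM was also added then. Sample columns left out numbered 0.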

Additional observations from a re-analysis of the deposited data

How the results depend on the processing

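Directions of the 7 tested genes did not reverse under any of the 18 alternatives. Counts of genes called lower (173) and higher (41) moved by over 1.5 times under most alternatives. The count of lower genes stayed within that range under 3 of the 18, and that of higher genes under 5. Genes called lower numbered 89 with upper quartile scaling, 79 with library totals, 573 without a filter, 1144 with DESeq2, 315 with limma-voom, 512 and 475 with limma-trend after adding 0.5 and 2 to the signal, and 91 after thinning, which leaves fewer counts. Genes called higher numbered 68 with library totals, 164 without a filter, 855 with DESeq2, 127 with limma-voom, and 103 and 78 with limma-trend. Leaving out 1 library gave 31 to 95 lower and 5 to 17 higher, and 0 or 1 of the 10 genes lower in place of 3. Those 10 had 6 called lower with DESeq2 (Cldn5 included) and 5 with limma-voom and with limma-trend plus 0.5. The number of genes tested also differed with DESeq2, under each other filter, after thinning, on transcript sums and with a library left out. The causes of these moves were not tested. The median gene stood at -0.12 under TMM and at 0.38 with library totals on the log2 scale, a shift far below the changes of the blood genes and Rgs5.

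Replicate numbers are shared between groups, but the labels tie them to no animal, litter or day. Correlations of same-numbered libraries, as deviations from group means over tested genes, were 0.000422, 0.00804 and -0.0151. Between differently numbered libraries of opposite groups they ran from -0.0164 to 0.0158. Whether same-numbered libraries share an animal, litter or day was not tested. With replicate number as a block, 78 genes were called lower, 19 higher and 0 of the 10.

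No haemoglobin copy lies on a patch sequence in the table (0 of the 10 genes), so adding such copies to the sums gave no second value. Depth limits what can be said of Pdgfrb and Flt1 in controls, where a floor of 3 counts is 0.0333 to 0.108 CPM, and of single haemoglobin copies in the labelled libraries, where it is 0.169 to 0.204 CPM.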
